A study of Mus musculus with 3 samples.

Results

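Open regions that lie within 1 kb of the first or last base of a protein-coding gene, and in which a peak was called in each of 3 ATAC-seq libraries of CD4+ T cells, numbered 10557. They made up 33.1% of the 31886 regions shared by all 3 libraries (95% Wilson interval 32.6 to 33.6) and came from 55946 merged regions on mouse chromosomes 1 to 19. They were selected on measured values: peaks of the 3 libraries that shared at least 1 bp were merged, and a region was kept if a peak of every library lay in it and its span reached a gene-end window. That every member is open in every library therefore follows from the choice. The libraries held divided CBir1 T cells, undivided CBir1 T cells and polyclonal T cells. CBir1 cells carry a transgenic T cell receptor for a flagellin of gut bacteria; they were enriched as naive CD4+ cells from the spleen of transgenic mice, labelled with the dye CellTrace Violet and injected into 4 WT C57BL/6J mice. All recipients then drank 2% dextran sulfate sodium (DSS), which injures the colon lining, for 7 days, and all received 1 mg/kg FTY720, which stops lymphocytes from leaving the nodes, on days 7, 10 and 13. On day 14 the colon-draining mesenteric lymph nodes gave the divided fraction (dye low, CTVdim), the undivided fraction (dye high, CTVhi) and the recipients' own non-CBir1 CD4+ cells. Material from 2 mice was pooled, all groups share the DSS and the FTY720, and 1 library per fraction was analysed here, so no difference below has a replicate check or a p-value.

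ATAC-seq uses a transposase that inserts sequencing adapters where DNA is not wrapped in nucleosomes. The stretch around an active gene start is the best known open region of a mammalian genome: nucleosomes are displaced there by general transcription factors, RNA polymerase and promoter-binding factors. Many such promoters are CpG islands, stretches with many CpG dinucleotides that are kept open in most cell types, whereas enhancers inside and between genes tend to be open in fewer cell types. In T cells, promoters of cytokine and effector genes open or close with activation, while those of genes used by every cell are open throughout.

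Sequences of 6 gene starts represent the range of members. Med19, a subunit of the Mediator complex, and Ndufa6, a subunit of respiratory complex I, were the highest members of their gene lists. Hk2 (hexokinase 2, the first enzyme of glycolysis), Il2 (the T cell growth cytokine interleukin 2) and Ctla4 (an inhibitory receptor) had more fragments at the summit in the divided than in the undivided library, and Prf1 (the pore-forming protein perforin) had fewer. Each is the 300 bases from 250 before to 50 after the RefSeq start on build GRCm38.p6, the assembly of mm10, written 5′ to 3′ along the gene; the Prf1 start lies 85 bp from the outermost base of the gene span. All 300 bases lie in the member region, except in Ctla4, where 260 do. Capitals mark every match, on either strand, to the 16 short motifs searched, of which 10 have a match here. These are the ETS core CCGGAAG, in 12.4% of all 14811 promoters, the NRF1 motif GCATGCGC (3.8%), the GC box GGGCGG (47.8%) and the CCAAT box CCAAT (39.4%). The others are the CRE core TGACGT, which lies within the full CRE (9.0%), the TATA box TATAAA (13.9%), the RUNX motif TGTGGT (14.8%), the TCF7 and LEF1 motif CTTTGA (14.7%), the AP-1 motif TGANTCA (7.10%) and the ISRE GAAANNGAA of interferon regulatory factors (8.30%). A match is a match of letters, not a bound site.
Med19 promoter (chr2:84678152-84678451, plus strand): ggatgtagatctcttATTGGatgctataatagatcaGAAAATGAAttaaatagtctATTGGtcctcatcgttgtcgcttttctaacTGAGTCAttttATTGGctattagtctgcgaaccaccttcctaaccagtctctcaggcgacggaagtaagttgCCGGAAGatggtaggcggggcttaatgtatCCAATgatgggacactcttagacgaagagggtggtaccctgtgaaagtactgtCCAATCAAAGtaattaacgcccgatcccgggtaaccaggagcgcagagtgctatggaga
Ndufa6 promoter (chr15:82354242-82354541, minus strand): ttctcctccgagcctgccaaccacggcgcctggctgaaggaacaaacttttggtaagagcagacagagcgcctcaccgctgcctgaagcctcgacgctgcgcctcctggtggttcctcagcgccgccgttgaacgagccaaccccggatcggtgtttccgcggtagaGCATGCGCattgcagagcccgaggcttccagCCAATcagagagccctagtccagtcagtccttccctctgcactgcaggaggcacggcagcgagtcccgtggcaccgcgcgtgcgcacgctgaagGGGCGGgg
Hk2 promoter (chr6:82774405-82774704, minus strand): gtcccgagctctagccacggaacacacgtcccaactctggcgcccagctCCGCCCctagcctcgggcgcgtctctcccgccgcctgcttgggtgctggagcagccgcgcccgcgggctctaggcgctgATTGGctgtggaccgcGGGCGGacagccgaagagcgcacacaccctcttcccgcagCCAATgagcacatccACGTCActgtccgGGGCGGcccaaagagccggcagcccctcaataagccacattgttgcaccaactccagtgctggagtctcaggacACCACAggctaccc
Il2 promoter (chr3:37125905-37126204, minus strand): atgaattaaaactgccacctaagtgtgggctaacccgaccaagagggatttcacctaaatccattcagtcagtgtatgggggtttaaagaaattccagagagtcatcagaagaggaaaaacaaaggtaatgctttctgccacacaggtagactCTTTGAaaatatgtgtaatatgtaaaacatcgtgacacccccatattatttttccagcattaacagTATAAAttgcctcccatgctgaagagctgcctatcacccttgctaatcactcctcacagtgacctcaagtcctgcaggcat
Ctla4 promoter (chr1:60908775-60909074, plus strand): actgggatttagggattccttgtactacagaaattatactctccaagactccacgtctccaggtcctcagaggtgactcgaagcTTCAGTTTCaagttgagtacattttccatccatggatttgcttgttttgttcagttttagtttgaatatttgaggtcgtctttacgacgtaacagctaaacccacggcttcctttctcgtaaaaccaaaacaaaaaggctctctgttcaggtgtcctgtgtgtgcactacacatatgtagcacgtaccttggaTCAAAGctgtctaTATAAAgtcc
Prf1 promoter (chr10:61297586-61297885, plus strand): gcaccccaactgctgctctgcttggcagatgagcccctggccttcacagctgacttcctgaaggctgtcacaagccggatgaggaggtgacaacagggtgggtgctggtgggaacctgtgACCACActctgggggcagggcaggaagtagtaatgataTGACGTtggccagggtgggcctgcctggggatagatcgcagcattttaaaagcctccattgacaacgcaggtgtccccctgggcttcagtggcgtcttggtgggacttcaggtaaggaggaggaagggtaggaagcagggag
In the Med19 promoter 1 ETS core lies 92 bases before the start, among 5 CCAAT boxes. The Ndufa6 promoter has an NRF1 motif 83 bases before its start and a CCAAT box 52 bases before it. The Hk2 promoter holds 3 GC boxes, 2 CCAAT boxes and 1 CRE core. The Il2 promoter has none of these: its CpG content was 0.15 of that expected from its C and G content, against 0.80 for Med19, 0.85 for Ndufa6 and 0.76 for Hk2, and its TATA box lies 31 bases before the start.

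Most members sat on gene starts. Strand was known for 16457 of 20665 protein-coding genes. No gene of chromosome 18 was among them, so results at gene starts and promoters leave that chromosome out. By it, 7918 members lay at a gene start, 646 only at a gene's last base, and 1993 at the end of a gene whose strand is not given. The strongest summit of members at a start lay a median of 30 bp after the first base of the gene in the divided library, 28 bp in the undivided library and 26 bp in the polyclonal library. It lay within 100 bp of that base in 49.7% of members in divided, 49.97% in undivided and 50.6% in polyclonal T cells. The summits of all 1332 members at a last base, including those that also reach a start, showed no such peak: only 3.00% in divided, 3.75% in undivided and 3.6% in polyclonal T cells fell within 100 bp of it. Gene ends in the sense of last bases were thus a small share of the members, and their summits lay a median of 693 bp from that base in divided, 706 bp in undivided and 698 bp in polyclonal T cells.

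**Figure D1:**
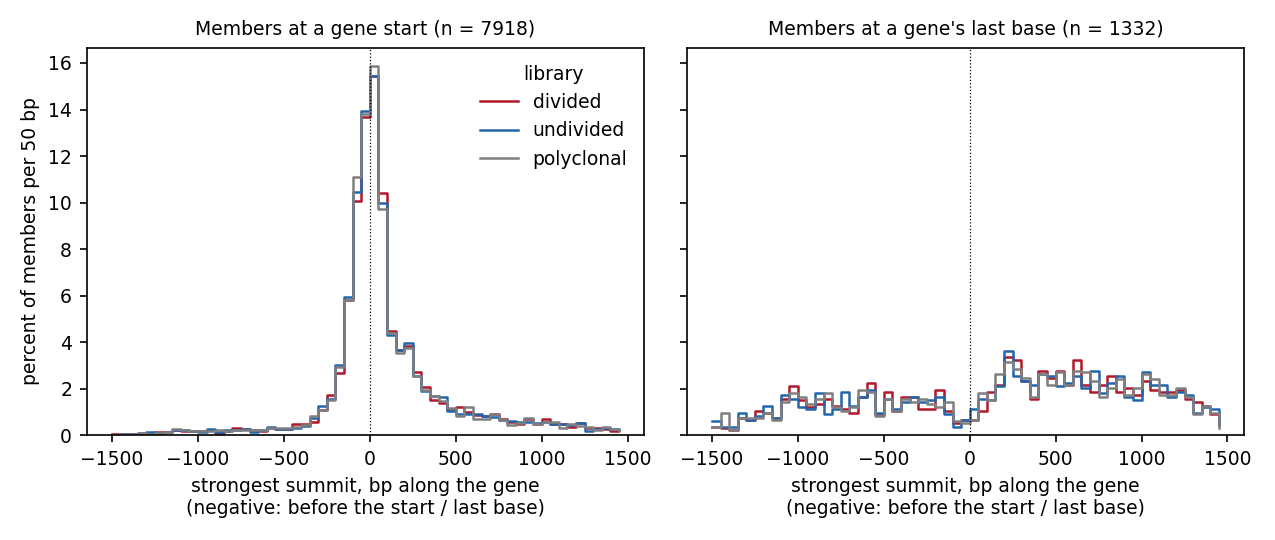
Position of each member's strongest summit in the divided, undivided and polyclonal libraries (lines), as percent of members per 50 bp, around gene starts (left) and gene last bases (right); negative positions lie before the start or last base along the gene. In all 3 libraries the summits pile up at the gene start and are spread out around the last base.

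Members at starts were higher and wider than the other shared regions. A region's level is the mean over the 3 libraries of its summit pileup, the number of fragments over the summit, after each library was scaled to the divided one by the median ratio over all shared regions. Members had a median level of 91.8 and a median width of 1049 bp. Shared regions inside genes had a median level of 38.1 and a width of 681 bp, and those between genes 34.6 and 666 bp. The contrast belonged to gene starts: members at a start had a median level of 99.4, and members only at a last base 36.3, close to the regions inside genes. Members with no strand given were at 80.8. Before scaling, the median pileup of members was 93 in divided, 73 in undivided and 78 in polyclonal T cells, against 39, 31 and 31 inside genes. The authors' fold enrichment of members had a median of 11.0 in divided, 12 in undivided and 11.7 in polyclonal T cells.

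**Figure D2:**
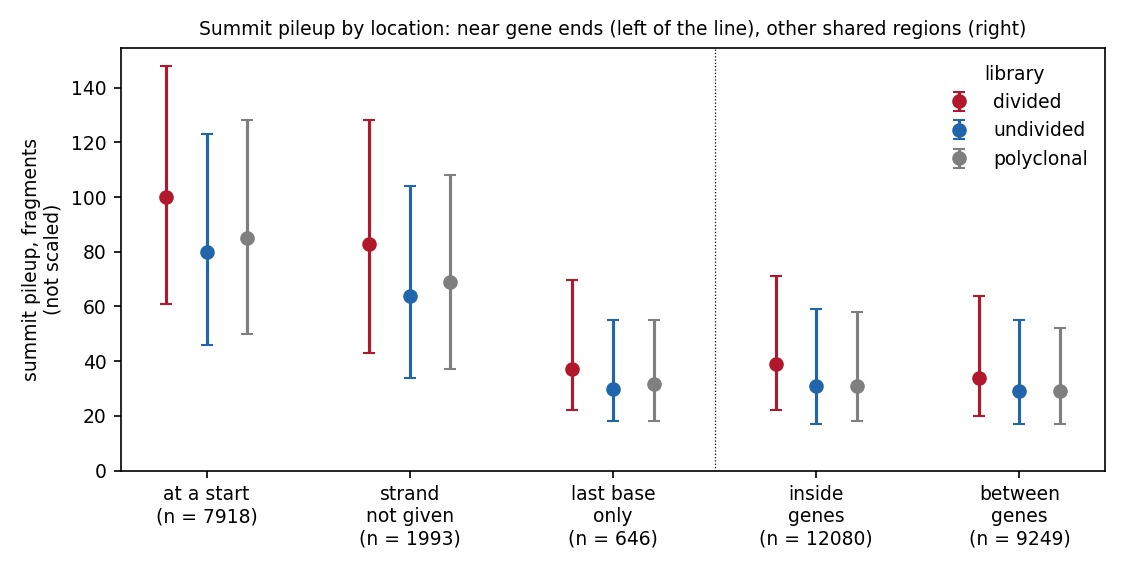
Unscaled summit pileup (fragments) in the divided, undivided and polyclonal libraries, as median (points) and quartiles (bars), for members at a start, with strand not given and at a last base only, and for shared regions inside and between genes. Members at a start lie highest in each library, and members at a last base only lie near the regions inside and between genes.

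The 1 kb window did not mark a step in level, whereas regions that cover a gene's outermost base were higher and also wider. The 8665 members whose span covers the first or last base had a median level of 100.6 and a median width of 1091 bp. The 1041 members 1 to 500 bp away had 49.3 and 814 bp, and the 851 members 501 to 1000 bp away had 49.7 and 738 bp. Just outside the window, the 764 shared regions 1001 to 1500 bp away had 48.5 and 700 bp. Width and contact with the base were not separated here. A start listed among the RefSeq promoters lay in 7328 members, which had a median level of 104. The other 3229, at 61.7, held no listed start. Of these, 1904 (median level 79.9) lay at genes with no strand given. Strand came from the same promoters, so starts of such genes could go uncounted. Another 694 lay at a start of known strand (49.3) and 631 only at a last base (36.1). Among shared regions inside genes, the 1086 that hold a listed start had 87.8, against 35.9 for those that hold none. Many genes have an inner start, so a high region of this kind can lie inside a gene span and outside the members.

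Members that serve more than 1 gene stood higher still. Of members at a start, 6998 held 1 gene start in their window and had a median level of 96.0, and 905 held 2 and had 123. The 564 members between divergent starts, where neighbouring genes are read away from each other, had a median level of 130 and a median gap of 104 bp between the starts. Divided over undivided, 4 of 898 members with 2 starts were past 2-fold in either direction, against 125 of 6664 members with 1 start. Of all tested members 1.49% were higher and 0.654% lower, and of all shared regions 3.5% and 3.04%. Such calls also fell with level, from 2.58% of members at a level of 40 to 80 to 0.367% at 80 to 160. Level and number of starts were not separated here.

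Of genes with known strand, 8586 (52.2%, 51.4 to 52.9) had a shared region at the start, 674 had one in some but not all libraries, and 7197 had none. Taken alone, the libraries came out alike, with a peak at the start of 9051 genes in divided, 8807 in undivided and 8912 in polyclonal T cells. Among genes used in every cell, nearly all starts were shared. This held for 31 of 31 genes of respiratory complex I, 66 of 68 mitochondrial ribosomal protein genes, 33 of 34 genes of RNA polymerase II and Mediator, 44 of 45 splicing factor genes, 29 of 31 proteasome genes, 39 of 41 genes of translation initiation factors and 53 of 59 ribosomal protein genes. Histone genes, used when DNA is replicated, counted 58 of 66. Families used in other tissues were nearly empty: 4 of 934 olfactory receptor genes, 3 of 320 vomeronasal receptor genes and 0 of 87 keratin genes. Zinc finger (Zfp) genes, many of which silence transposable elements, lay between, with 246 of 324. At least 1 of the few receptor genes shares its region with a neighbour: the region at Vmn1r4 also holds the start of Nt5c3, with pileups of 132 in divided, 103 in undivided and 114 in polyclonal T cells.

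In base composition, promoters with a shared region at the start differed widely from promoters with none. The 8067 promoters with a shared region had a median GC content of 61.7% and a median CpG ratio (observed over expected) of 0.79, and 74.96% of them were CpG-rich (ratio of at least 0.6 and GC of at least 50%). The 6155 promoters with no region had 48.3%, 0.21 and 12.6%. The 589 promoters with a region in 1 or 2 libraries lay between, with 59.3%, 0.56 and 44.1%. Within the shared promoters, 82.7% of the 2017 with the highest level were CpG-rich, against 62.1% of the lowest 2017.

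The motifs split in the same way, and a few did so among CpG-rich promoters as well. CpG-rich promoters with and without a shared region still differed in median CpG ratio (0.85 and 0.78) and GC content (64.3% and 66%). Base composition was thus not fully matched. The ETS core, bound by factors such as GABPA and ETS1, was in 20.5% of promoters with a shared region (19.7 to 21.4), against 2.39% of those with none (2.04 to 2.80). Restricted to CpG-rich promoters, it was in 23.0% against 5.16%, while the GC box, bound by SP and KLF factors, was in 77.2% against 74.5%. For the YY1 motif AAGATGGC (3.27% of all promoters), the shares in CpG-rich promoters were 5.74% with a shared region and 1.81% with none. For the CRE core, bound by CREB and ATF factors, they were 14.7% and 8.13%. The TATA box went the other way, with 6.31% of promoters with a shared region against 24.1% of those with none; among CpG-rich promoters the shares were 4.70% and 6.58%. The GATA motif AGATAA (9.82% of all promoters) was in 5.65% against 15.8%, and the RUNX motif in 11.6% against 18.8%. In CpG-rich promoters RUNX was instead in 9.97% of those with a shared region against 6.32% of those with none.

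The CCAAT box, bound by NF-Y, was in 39.9% of promoters with a shared region and 39.6% of promoters with none. Among CpG-rich promoters it was in 39.2% of those with a shared region (37.9 to 40.4) and 32.1% of those with none (28.9 to 35.5). Among the shared promoters it was in 56.2% of the 2017 with the highest level, against 31.0% of the 2017 with the lowest. Promoters with the box had a median level of 124.5, against 93.7 without it. For the ETS core those levels were 107.7 with and 103.8 without.

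**Figure D3:**
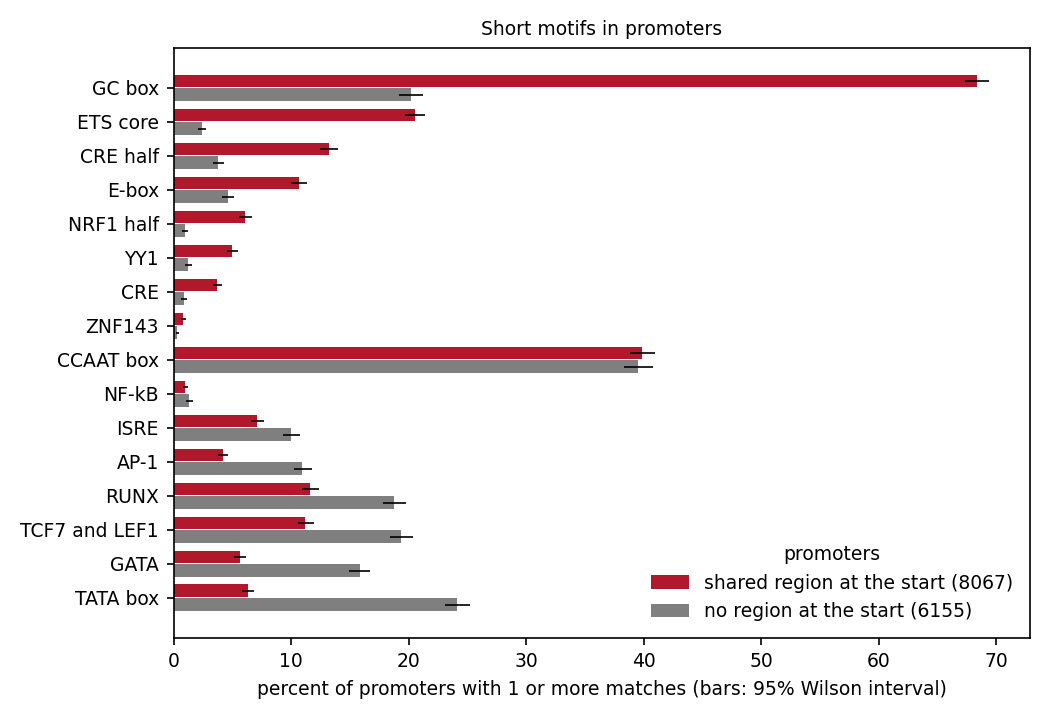
Percent of promoters (300 bases each) with at least 1 match on either strand to each of 16 motifs, for promoters with a shared region at the gene start and for promoters with no region; bars show 95% Wilson intervals. The GC box and the ETS core differ most in favour of promoters with a shared region, the TATA box most the other way, and the CCAAT box is at 39.9% and 39.6%.

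Between libraries, members varied less than the other shared regions. Ratios were taken of scaled pileups, in log2, over the 26627 shared regions with a level of at least 20, of which 9941 were members (of 10557), and a region was called at 2-fold or more. Divided over undivided, 148 members were called higher (1.49%) and 65 lower (0.654%), where 3.5% of all shared regions were called higher and 3.04% lower. Divided over polyclonal, 48 members were called higher (0.483%) and 40 lower (0.402%), where 1.93% and 1.96% of all shared regions were. Undivided over polyclonal, 21 members were called higher (0.211%) and 65 lower (0.654%), where 0.789% and 1.35% of all shared regions were. The comparisons share libraries, so they are not independent. In bulk libraries a smaller share of cells with an open region and less open chromatin per cell cannot be told apart. The members' median ratio was 0.02 divided over undivided, -0.03 divided over polyclonal and -0.06 undivided over polyclonal. Ratios were also compared at equal level. At a level of 40 to 80, the SD of the divided over undivided ratio was 0.41 in 2562 members, against 0.58 inside genes and 0.60 between genes, where counting alone gives 0.29, 0.30 and 0.30. In that range 2.58% of members were past 2-fold, against 7.81% inside genes and 8.20% between genes. At a level of 20 to 40 the shares lay closer together: divided over undivided, 10.05% of members, 13.8% inside genes and 14.9% between genes, and undivided over polyclonal, 5.18% of members, 5.90% inside genes and 4.92% between genes.

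The balance of higher and lower calls depends on the scaling. With libraries scaled by their lowest local background, a stand-in for depth, 72 members were called higher and 165 lower divided over undivided, and 13 higher and 98 lower divided over polyclonal. That scaling moves the median of all shared regions by -0.31 divided over undivided and by -0.24 divided over polyclonal. Unscaled, 336 members were higher and 25 lower divided over undivided. Ratios below are relative to the median of all shared regions.

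Among members at a start, 98 were called higher and 31 lower divided over undivided (1.29% and 0.409% of 7577). Among the 521 tested members only at a last base it was 19 higher and 17 lower (3.65% and 3.26%), close to the shares over all shared regions. At a level of 40 to 80, the SD divided over undivided was 0.35 in 1234 CpG-rich promoters and 0.43 in 540 others. At a level of 20 to 40 it was 0.54 in 389 CpG-rich promoters and 0.62 in 298 others, whereas undivided over polyclonal it was 0.47 and 0.46, with 5.91% and 3.36% past 2-fold. Of the 92 promoters called higher in the divided library, 64.1% were CpG-rich (54.0 to 73.2), and of the 28 called lower, 28.6% (15.3 to 47.1), against 74.96% of all promoters with a shared region. The called promoters were low, with median levels of 38.0 (higher) and 35.9 (lower). Of the 2017 shared promoters with the lowest level (median 40.5), 62.1% were CpG-rich, near the share among those called higher.

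**Figure D4:**
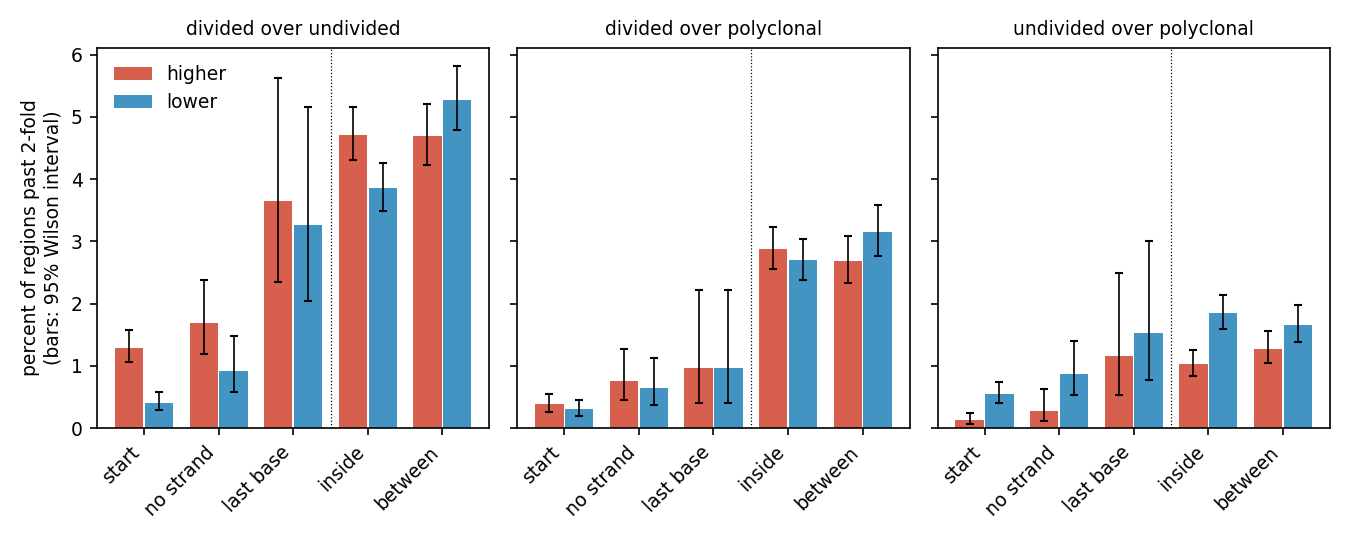
Percent of shared regions past 2-fold higher or lower (bars, with 95% Wilson intervals that cover counting error only) in each comparison of 2 libraries, by location: members at a start, with strand not given and at a last base only, then regions inside and between genes. Members at a start have the lowest percent in each comparison.

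The most uneven members were chosen by their ratio, so their values are a description. Pileups of named regions are given before scaling throughout, whereas ratios use scaled pileups. The order of the pileups can therefore differ from the direction of a ratio. Divided over undivided, the highest ratio was at the last base of Bmp2k, a protein kinase of endocytosis, with pileups of 57 in divided, 6 in undivided and 37 in polyclonal T cells (log2 ratio 2.98, exact counting interval 1.77 to 4.48). Pcyox1l followed with 118, 13 and 47 (2.91), and the start of Angptl2, a secreted angiopoietin-like protein, with 75, 9 and 40 (2.79). Dcun1d5, a neddylation factor, had 77, 10 and 31, the start of Glt28d2 59, 8 and 23, and Secisbp2l 68, 10 and 21. In all 6 the undivided library was the low one, and the polyclonal library lay between the others. These members also made up much of the low end undivided over polyclonal, with Bmp2k at -2.60, Angptl2 at -2.13 and Pcyox1l at -1.83. Ica1l had 23 in divided, 7 in undivided and 27 in polyclonal T cells. The regions at Gm3739 and Gm3512, also low in the undivided library, lie among near-identical gene copies, where reads can be assigned to the wrong copy.

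The lowest divided over undivided ratio was at Qpct, which encodes an enzyme that cyclises glutamine at protein ends, with pileups of 16 in divided, 58 in undivided and 49 in polyclonal T cells (-2.13, -3.03 to -1.31). The start of Syne1, a nuclear envelope protein, had 9, 32 and 21 (-2.10), the start of Rbbp9 9, 28 and 18, the last base of N4bp3 13, 38 and 32, Ptp4a3, a protein phosphatase, 24, 66 and 43, and the start of Btc, a growth factor of the EGF family, 24, 64 and 41. In these the divided library was the low one. Qpct and N4bp3 were among the 6 lowest divided over polyclonal as well. With the authors' fold enrichment, Qpct (-0.76), N4bp3 (-0.76) and Btc (-0.54), and at the high end Secisbp2l (0.95), were under 2-fold divided over undivided.

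Divided over polyclonal, the highest ratios were at Rabl2, a small GTPase, with 41 in divided, 12 in undivided and 9 in polyclonal T cells (1.94, 0.88 to 3.16), and at Il2, with 53, 9 and 12 (1.89, 0.97 to 2.93). The Il2 region spans chr3:37125583-37126474 and covers the whole TATA-box promoter shown above; divided over undivided its ratio was 2.29 (1.26 to 3.49). With the authors' fold enrichment in place of the pileup, Il2 was at 0.72 divided over polyclonal, under 2-fold. That fold was 8.54 in divided and 5.25 in undivided T cells, less than 2-fold apart as well. The local background at Il2 was 5.32 fragments in divided, 0.91 in undivided and 1.36 in polyclonal T cells. The divided library was the high one in the other 4 too: Soat2 and Igfbp6 with 39, 13 and 9, LOC108167368 with 64, 17 and 16, the calcium exchanger Slc24a3 with 76, 25 and 20, and 4930558C23Rik with 51, 12 and 15. The lowest was at Csf2, which encodes the cytokine GM-CSF, with 10 in divided, 16 in undivided and 31 in polyclonal T cells (-1.88, -3.08 to -0.82). That region begins 300 bp from the first base of the gene. The start of Dapk1, a kinase of cell death, had 16, 38 and 49, A530021J07Rik 22, 58 and 64, and Cyp4f40 13, 21 and 32. With the authors' fold enrichment, LOC108167368 (0.93), Slc24a3 (0.67), 4930558C23Rik (0.94), Dapk1 (-0.75), Qpct (-0.72), A530021J07Rik (-0.87) and N4bp3 (-0.62) were under 2-fold as well.

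Undivided over polyclonal, the ratios at the high end were smaller. Hs1bp3 had 48 in the undivided and 19 in the polyclonal library (1.36, 0.56 to 2.21), Anxa11 22 and 9, Rad54b, a DNA repair helicase, 24 and 10, the lactate and pyruvate carrier Slc16a7 36 and 15, Wnt5b (a signalling ligand) with Gm52875 26 and 11, and Pde9a, which breaks down cyclic GMP, 30 and 13. With the authors' fold enrichment all 6 were under 2-fold, between 0.24 and 0.97, as were Angptl2 (-0.95), Pcyox1l (-0.82) and Gm3512 (-0.80) at the low end. Of the 6 only Slc16a7 also differed by 2-fold between the divided and the undivided library, with 21 in the divided library (-1.05).

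T cell genes were followed in 13 lists, which hold 133 distinct members at either end, 129 of them tested. Divided over undivided, 5 were called higher (3.88%) and 1 lower (0.775%), where 3.5% and 3.04% of all shared regions and 1.49% and 0.654% of all members were. The share of higher calls is near that of all shared regions. Divided over polyclonal, 1 was called higher, Hk2, and 0 lower, and undivided over polyclonal 0 were called. The median ratio of the 129 was 0.00 divided over undivided, against 0.02 over all members.

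The 5 higher members belonged to different lists. The Hk2 start had pileups of 113 in divided, 37 in undivided and 43 in polyclonal T cells (1.34 divided over undivided, 0.79 to 1.92). The start of Tnfrsf4 (the costimulatory receptor OX40), in a region that also reaches an end of Sdf4, had 64, 23 and 43 (1.21, 0.50 to 1.96). Ctla4 had 168, 63 and 88 (1.14, 0.72 to 1.59), Ahr, a receptor for dietary and microbial ligands, 129, 49 and 78 (1.13, 0.64 to 1.63), and Tox2, a factor of follicular helper T cells, 154, 60 and 71 (1.09, 0.65 to 1.54). In all 5 the undivided library was lowest and the divided library highest. The lower member was Prf1, with 44 in divided, 94 in undivided and 50 in polyclonal T cells (-1.37, -1.92 to -0.83), and there the undivided library stood alone.

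These calls rest on the summit pileup and its scaling. Scaled by the lowest background, Hk2 and Prf1 stayed past 2-fold, while Tnfrsf4 (0.90), Ahr (0.82), Ctla4 (0.83) and Tox2 (0.78) stayed higher but under 2-fold. With the authors' fold enrichment in place of the pileup none of the 6 was past 2-fold, and Ctla4 turned round, to -0.47. The local background at the Ctla4 summit was 24.1 fragments in divided, 5.25 in undivided and 11.4 in polyclonal T cells.

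Cell cycle genes were shared throughout: 16 of 16 starts of known strand, and 18 of 18 genes at either end. None was called in any comparison, where at most 1.49% of all members were called higher or lower. With 18 genes, 0 is near that share. The median ratio of cell cycle genes divided over undivided was 0.19, and 14 of 18 were above 0. All members had a median of 0.02, with quartiles of -0.14 and 0.22. The highest cell cycle gene, at the start of the mitotic kinase Plk1, had 66 in divided, 30 in undivided and 37 in polyclonal T cells (0.87). Next stood Aurkb, another mitotic kinase, with 80, 41 and 57, and Cdk2, a kinase that drives cells into DNA replication, with 84, 46 and 59; these and other genes beyond the extremes of a list are named with their values known. The lowest was Mcm6, a subunit of the replicative helicase, with 129, 133 and 108 (-0.31). The start of Mki67, the proliferation marker Ki-67, had 152 in divided, 90 in undivided and 101 in polyclonal T cells (0.49). At Plk1 the authors' fold was lower in divided (8.20) than in undivided T cells (9.59). The local background there was 7.17 fragments in divided and 2.23 in undivided T cells.

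Naive and quiescence genes leaned the other way: their median ratio was -0.17 divided over undivided, and 3 of 15 were above 0. None of the 15 was called, which is also near the share over all members. The transcription factor gene Bach2 was lowest, with 140 in divided, 181 in undivided and 155 in polyclonal T cells (-0.64, -0.97 to -0.31). Klf2, a quiescence factor, had 192, 211 and 201. Klf3 was highest at 0.12. Under the background scaling all of these ratios would fall by 0.31, and the leaning of the cell cycle list would turn to the other side of 0.

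Activation genes had 12 of 14 starts shared, with Tnfrsf4 called. Irf4, a factor induced by receptor signalling, had 119 in divided, 55 in undivided and 55 in polyclonal T cells (0.84), and Prdm1 the lowest ratio, with 116, 130 and 136 (-0.43). Of inhibitory receptor and anergy genes, 9 of 11 starts were shared. The checkpoint receptor gene Pdcd1 had 89, 45 and 42 (0.71), and Dgkz, a brake on receptor signalling, 50, 69 and 66 (-0.74). Interferon-stimulated genes had 12 of 14 starts shared and a median ratio of -0.09. Their extremes were Bst2, with 99, 61 and 87 (0.43), and Ifit3, with 40, 66 and 42 (-0.99).

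**Figure D5:**
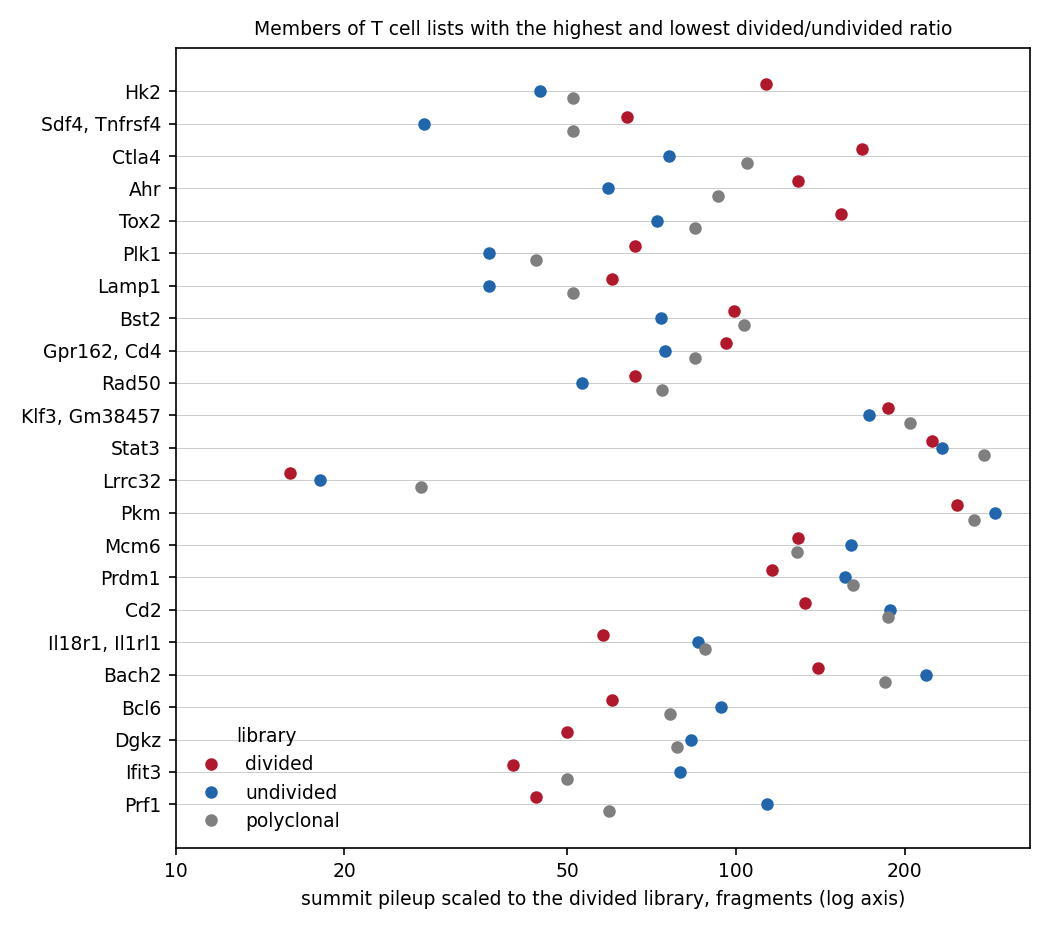
Scaled summit pileup (fragments, log axis) in the divided, undivided and polyclonal libraries for 23 members with the highest or lowest divided over undivided ratio of the T cell lists, ordered by that ratio. Hk2, Tnfrsf4, Ctla4, Ahr and Tox2 at the top have the divided library highest and the undivided lowest, and Prf1 at the bottom has the undivided library alone at the high end.

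At starts of known strand, lists of helper T cell lineages ranged from 8 of 8 shared (Treg) to 3 of 10 (Th17 and Th2). At either end, 10 of 12 Treg genes had a shared region, against 6 of 12 (Th17) and 5 of 11 (Th2). The Treg genes without one were Ikzf4 and Il10. All 14 T cell identity genes had a shared region at an end, from Cd4 with its neighbour Gpr162, with 96 in divided, 62 in undivided and 71 in polyclonal T cells (0.36), to Cd2 with 133, 156 and 157 (-0.50). The Treg list had 8 of 8 starts and the Tfh list 5 of 6, with Tox2 highest and Bcl6, the master factor of these cells, lowest, with 60, 78 and 64 (-0.65). The Th1 list had 6 of 8. Its master factor Tbx21 had 42, 28 and 32, and its lowest ratio was at the region of the cytokine receptors Il18r1 and Il1rl1 with 58, 71 and 74 (-0.56). The Th17 and Th2 lists had 3 of 10 each. At either end, members of these lists included Ahr, Stat3, with 224, 193 and 233, and Rad50, whose gene holds the control region of the Th2 cytokines, with 66, 44 and 62 (0.31). The strand of Ahr and of Rad50 is not given, so neither counts among those starts. In the cytotoxic list, with 5 of 9, Lamp1 had 60, 30 and 43 (0.73). In the glycolysis list, with 10 of 13, Pkm had the lowest ratio (-0.22), with 248, 240 and 224, and after scaling 248, 289 and 266. In the Treg list Lrrc32 was lowest with 16, 15 and 23 (-0.18).

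The list genes without a shared region at either end numbered 33, and 24 of them had no region of any library there, among them Il4, Il5, Il13, Il17a, Il17f, Il22 and Gzmb. Il21, the cytokine of follicular helper cells, had a region in the divided library, with a pileup of 44, and in the polyclonal library, with 18. Il10 had one in the same libraries with 16 and 14, and Ifng in the divided library alone, with 17. Gata3, Rora, Ldha and Aldoa, expressed in many T cells, were also without one; a gene counts here only by the outermost bases of its span, and an inner start can lie farther away.

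Of 73 markers of cell types that the sort should leave out, 17 had a shared region at either end, against 53.8% of all protein-coding genes. At starts of known strand it was 7 of 48 markers, against 52.2% of all such genes. At gene starts of known strand, 0 of 6 B cell, 0 of 8 dendritic cell and 0 of 1 CD8 T cell markers had a shared region, and 1 of 7 myeloid, 1 of 5 NK and innate lymphoid, 1 of 7 epithelial, 1 of 4 stromal and endothelial, 2 of 4 erythroid and 1 of 6 neuronal markers. Ms4a1, Itgam, Csf1r, Itgax, Ncr1, Cd8a and Cdh1, chosen with their values known, had none at either end. Of the markers with one, Cebpa had 21 in divided, 10 in undivided and 21 in polyclonal T cells, Cd14 27, 26 and 31, Flt3 25, 25 and 18, and Crtam 21, 15 and 22. Of erythroid markers, Epor had 45, 27 and 25 and Klf1 74, 74 and 64. The regions at Cd79a and at Xcr1 also hold the starts of Arhgef1 and Fyco1, and that at Id2, with 210 in divided, 188 in undivided and 211 in polyclonal T cells, belongs to a gene that CD4+ T cells also express. Epcam had 25, 28 and 26, Map2 30, 33 and 19, Col1a1 43, 35 and 37, and Spi1 69, 49 and 39. At Cd8b1, a chain of the CD8 co-receptor, the pileups were 33 in divided, 51 in undivided and 63 in polyclonal T cells, past 2-fold lower divided over polyclonal (-1.18, -1.84 to -0.55). The part of other cells in this value was not tested.

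Extremes of level show the range of the members. The highest was a region of 276 bp that begins 739 bp from the last base of Wls, a carrier of Wnt proteins, with 2483 in divided, 1949 in undivided and 1854 in polyclonal T cells over a local background of 65.9, 48.7 and 46.1. The next 4 lay close together on chromosome 6 at the predicted genes Gm40364 and Gm40363, Gm40365, Gm40367 and Gm36327, with pileups of 653 to 795. Backgrounds there were also high, 138, 122 and 106 at the first of them. Among members with a local background under 10 in every library, the highest was the region shared by Golph3l, a Golgi protein, and Hormad1, a meiotic protein, with 227, 191 and 207. Those of Aagab with Iqch (218, 195 and 194), Casp8ap2 (191, 203 and 196), Rbis (223, 194 and 175) and Gins4, a subunit of the replicative helicase (193, 186 and 200), followed. The lowest members were those of Adamtsl2 with 7, 6 and 5, Fads3 and Fermt1 with 9, 5 and 7 each, Tmem108 with 9, 7 and 5, and Tiam2 with 8, 7 and 6. In the lists of common genes, the highest members differed little between libraries, as at Med19 with Tmx2, with 269 in divided, 228 in undivided and 227 in polyclonal T cells (-0.03 divided over undivided), or Ndufa6, with 206, 188 and 207 (-0.14). Others were Mrpl34 with Abhd8 (275, 268 and 266), Psmb9 with Tap1 (225, 222 and 217), Eif2ak3 (269, 278 and 242), the histone cluster at H4c18 (194, 195 and 186) and Zfp433 (291, 293 and 278). Of the 348 tested members of the 7 housekeeping lists (which leave out histone and Zfp genes), 0 were called in any comparison. The median levels of these lists were 80.4 to 113.3. At a level of 80 to 160, 0.367% of all members were called divided over undivided. The shares were 0.122% divided over polyclonal and 0.0245% undivided over polyclonal. The count of 0 is near these shares. At Olfr9 the pileups were 106, 151 and 128, and at Krt83 33, 8 and 20 (1.77).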

How the data were processed

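ATAC-seq libraries of 3 fractions were compared. Build mm10 and the tools MACS2 2.1.0, SAMtools, Picard, Bowtie2 2.3.2, Trimmomatic 0.33, cutadapt 1.12 and bcl2fastq 2.17 are named in the submitters' processing notes. Not given in the sources used here is how duplicate pools entered each list, or whether reads were shifted for the transposase. The authors deposited peaks with a score, a fold enrichment ratio, −log10 p-values, −log10 q-values and a summit offset. Peaks on chromosomes 1 to 19 numbered 46764, 40781 and 43327 in the divided, undivided and polyclonal libraries.

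The pileup at each summit was solved from the deposited p-value and fold, reading the fold as pileup plus 1 over background plus 1 and the p-value as a Poisson tail. It was whole within 0.001 for 99.96%, 99.97% and 99.98% of peaks, and the recovery was tested on simulated data. Pileups were multiplied by 1.21 (undivided) and 1.19 (polyclonal). Lowest backgrounds of 1.21, 0.808 and 0.865 give the divided library 1.50 and 1.40 times the depth of the others. Intervals of ratios are exact (Clopper-Pearson) and cover counting error only. The strand came from RefSeq promoters (GRCm38.p6), 14811 of which lay within 1 kb of the first base of a gene span. Python 3.11.15 and SciPy 1.17.1 were used.

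Regions named are the 5 highest and 5 lowest by level, the 6 highest and 6 lowest ratios of each comparison at a level of at least 20, the highest and lowest divided over undivided ratio of each T cell list, and the highest level of each other list; a few of these are not reported here. Members and lists were chosen with earlier results of these data known. Read totals and unpeaked signal were not analysed here.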

Additional observations from a re-analysis of the deposited data

How the results depend on the processing

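The number of members was 10557 and ranged from 9375 (−log10 q of at least 10 in every library) to 11920 (window of 2 kb). Genes with a shared region at the start numbered 7994 to 9004, against 8586. The median level of members was 93.3 in regions with 1 peak of each library, 101.3 at −log10 q of at least 10, and 71.3 in regions of 500 to 1000 bp. Its ratio to regions inside genes was 2.41, against 1.80 at that q and 1.84 at that width, and to regions between genes 2.65, against 2.02 and 1.99.

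Counts of members past 2-fold are given as higher and lower. Divided over undivided they were 148 and 65, against 72 and 165 (lowest background), 336 and 25 (unscaled), 32 and 13 (level of at least 50), 543 and 251 (1.5-fold), 32 and 9 (3-fold) and 27 and 6 (authors' fold). Divided over polyclonal they were 48 and 40, against 13 and 98, 173 and 19, 7 and 8, 324 and 227, 5 and 4, and 7 and 4 in the same order, and 87 higher with no minimum level. Undivided over polyclonal they were 21 and 65; both scalings gave counts within 1.5 times of these, and a level of at least 50, 1.5-fold, 3-fold and the authors' fold gave 0 and 10, 167 and 364, 0 and 11, and 2 and 9, with 32 higher at no minimum level. In every alternative the share of members called stayed below that of all shared regions. The cause of the shift with scaling was not tested.

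Of 60 named ratios, 26 that had been past 2-fold fell under 2-fold with the authors' fold. Among ratios past 2-fold, 1 changed sign, Ctla4 divided over undivided, to -0.47. Changes of sign in smaller ratios were not counted. The ETS core difference of 18.1 percentage points was 16.2 in promoters whose region holds 1 gene start. With all summits, the median distance to the start was 106 bp in the undivided and 104 bp in the polyclonal library, against 101 and 98 bp. The settings above were planned; the low-background ranking, level bins and CpG-rich restriction were chosen after seeing the data. No paired analysis was possible because each group is 1 library, and no replicate could be left out. Depth limits low members: at a level of 20 to 40, counting alone gives the divided over undivided ratio an SD of 0.41.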
